A study of Mus musculus with 2 samples.

Results

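Fc receptors are the proteins through which macrophages sense IgG bound to antigen, and 8 genes of this system were examined in adipose tissue macrophages (ATM), which live in fat or move into it. They are the activating Fcγ receptors Fcgr1, Fcgr3 and Fcgr4, the inhibitory receptor Fcgr2b, the shared signalling chain Fcer1g, the neonatal Fc receptor Fcgrt and the kinases Syk and Lyn. The genes were chosen by name for their place in IgG sensing, with earlier results of these data known. All 8 were found among the 20330 gene identifiers of the expression table. ATM of C57BL/6 mice on a high-fat diet (HFD) for 12 weeks were sorted from visceral fat with antibodies against F4/80 and CD11b, and their poly(A) RNA was sequenced to compare macrophages with and without HIF-1α, the subunit that makes the transcription factor HIF-1 respond to oxygen. The WT library came from hMRP8cre-;Hif-1αfl/fl;ApoE-/- mice and the KO library from hMRP8cre+;Hif-1αfl/fl;ApoE-/- mice. By these labels ApoE was knocked out and Hif-1α was flanked by loxP sites in both, and the KO mice alone carried the Cre recombinase. Cre was driven by the human MRP8 promoter, which is active in myeloid cells, and so is not limited to macrophages. There was 1 library for each genotype, and whether a library was 1 animal or a pool is not given in the sources used here, nor is the age of the mice in the labels. No difference below therefore has a replicate check, and no test was possible.

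In the activating arm, the receptors Fcgr1, Fcgr3 and Fcgr4 bind the Fc part of IgG at the cell surface and pair with the γ chain encoded by Fcer1g, whose tail carries an immunoreceptor tyrosine-based activation motif (ITAM). When receptors are clustered by antibody-coated particles, Src family kinases such as Lyn phosphorylate the ITAM, and Syk docks there and passes the signal on to phagocytosis and cytokine release. Fcgr2b instead carries an inhibitory motif (ITIM) in its own tail and dampens the same signal through phosphatases. Fcgrt encodes the heavy chain of a receptor that pairs with β2-microglobulin inside the cell and spares IgG from breakdown, and macrophages are among the cells in which it does so.

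The genes of Fcgr2b and Fcgr3 are near-identical over part of their extracellular domains, which bears on how their reads can be told apart, so the stretch is shown. It spans 209 coding bases on the minus strand of chromosome 1 in the GRCm38 GENCODE M21 annotation. In Fcgr2b it lies in exon 5 (chr1:170967980-170968121) and exon 6 (chr1:170966634-170966700) of transcript ENSMUST00000159969, and in Fcgr3 in exon 3 (chr1:171057691-171057832) and exon 4 (chr1:171054127-171054193) of ENSMUST00000164044. Capitals mark the bases at which the genes differ.
Fcgr2b: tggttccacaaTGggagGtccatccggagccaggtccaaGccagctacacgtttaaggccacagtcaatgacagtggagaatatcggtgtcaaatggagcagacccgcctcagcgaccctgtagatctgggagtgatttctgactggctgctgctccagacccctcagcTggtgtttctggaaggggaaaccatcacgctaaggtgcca
Fcgr3: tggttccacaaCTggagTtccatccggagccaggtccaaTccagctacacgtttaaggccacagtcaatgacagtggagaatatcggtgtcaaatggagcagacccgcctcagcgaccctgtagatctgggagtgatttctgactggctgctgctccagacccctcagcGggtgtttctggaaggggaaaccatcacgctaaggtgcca
Of the 209 bases 204 (97.6%) were identical, and the longest identical run was 129 bases. Over the whole coding sequence, 166 of 752 windows of 50 bases in Fcgr3 (22.1%) and 166 of 971 in Fcgr2b (17.1%) had an exact copy in the other gene. No window of that length was shared by any other pair among Fcgr1, Fcgr2b, Fcgr3 and Fcgr4. How the reads of the shared stretch were divided between Fcgr2b and Fcgr3 is not given in the sources used here, so the levels of this pair are uncertain and their sum is given as well.

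All values are FPKM, fragments per kilobase of transcript scaled to library size, so levels can be set side by side between genes. A difference is that of log2(FPKM + 1), KO minus WT, and a gene was called higher or lower when it reached 3-fold on this scale. Of the 8 genes, 0 passed 3-fold, against 27.3% of the 10297 genes compared, those that reached 1 FPKM in either library. The share past 3-fold depends strongly on level. It was 16.3% at a mean of 10 to 50 FPKM, where Fcgr1 and Fcgr4 lie, 4.31% at 50 to 200 FPKM, where Syk and Lyn lie, and 1.27% from 200 FPKM, where Fcgr2b, Fcgr3, Fcgrt and Fcer1g lie. All 8 genes passed the filter on low values in both libraries. Of them 7 were above 0 and Fcgr1 was below 0, with a median difference of 0.37 against 0.03 over all genes compared. The share above 0 was 51.3% of all genes compared and 45.7% of those from 200 FPKM. Their share of all FPKM was 0.735% in WT and 0.856% in KO.

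**Figure D1:**
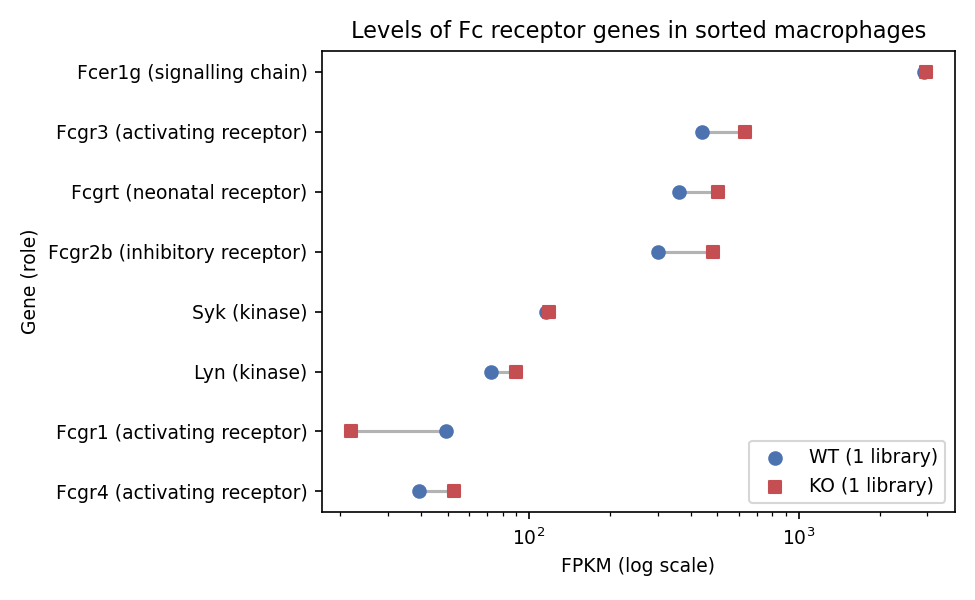
FPKM (log scale) of the 8 genes in the WT library (circles) and the KO library (squares), 1 library for each genotype, with the role of each gene. Fcer1g was the highest in both libraries at 2927 and 2965 FPKM, and Fcgr1, at 49.3 and 21.9 FPKM, had its KO value to the left of its WT value.

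Fcgr1 (ENSMUSG00000015947, GRCm38 chr3:96282909-96293969, minus strand) encodes the high-affinity IgG receptor. It was at 49.3 FPKM in WT against 21.9 FPKM in KO, a difference of -1.14 on the log2 scale and a WT level 2.25 times that of KO. It was the lone member past 2-fold. Among all genes compared 22.5% were lower by 2-fold or more, and at the level of Fcgr1, 10 to 50 FPKM, 16.4% were. By estimate, 754 WT and 423 KO fragments lay behind these values, and counting error alone gives a KO to WT ratio of 0.443 with a 95% exact binomial interval of 0.393 to 0.5003, whose upper end reaches 2-fold. The middle 90% of genes at 10 to 50 FPKM spread from -2.14 to 1.96, far wider than that interval, and the difference of Fcgr1 lay inside this spread. In the order of the 8 genes by level it was 7th in WT and 8th in KO.

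Fcgr3 (ENSMUSG00000059498, chr1:171051174-171064935, minus strand) encodes a low-affinity activating receptor and was the most abundant Fcγ receptor in both libraries. It was at 440 FPKM in WT against 633 FPKM in KO, a difference of 0.52. Fcgr4 (ENSMUSG00000059089, chr1:171018920-171029761, plus strand), an activating receptor that binds some IgG subclasses with intermediate affinity, was at 39.1 FPKM in WT against 52.9 FPKM in KO, a difference of 0.43. The KO values of both were thus above the WT values, by ratios of 1.44 and 1.36, where that of Fcgr1 was below. Estimated fragments numbered 3441 and 6253 for Fcgr3, but 290 and 497 for Fcgr4, whose ratio had a counting interval of 1.17 to 1.57. Fcgr4 was the lowest of the 8 genes in WT, and Fcgr1 in KO, so the lower end of the order changed hands.

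Fcgr2b (ENSMUSG00000026656, chr1:170958617-170976547, minus strand), the inhibitory receptor, was at 302 FPKM in WT against 481 FPKM in KO. Its difference of 0.67 was the largest above 0 among the 8 genes, with a ratio of 1.59 and a counting interval of 1.52 to 1.67. At 200 FPKM or more the middle 90% of genes spread from -0.93 to 0.69, so Fcgr2b lay just inside the upper end. The summed FPKM of Fcgr2b and Fcgr3 was 743 in WT and 1114 in KO, a difference of 0.58 and a ratio of 1.5003. This sum is not free of how reads of the near-identical stretch were treated, because FPKM divides by lengths that differ between the genes, 1520 and 1324 nt here.

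The make-up of the Fcγ receptor transcripts was then compared within each library, a measure that scaling between libraries cannot move. Fcgr3 held 52.97% of the summed FPKM of the 4 receptors in WT and 53.2% in KO, and Fcgr2b held 36.4% and 40.5%. Fcgr4 held 4.70% and 4.45%, while Fcgr1 went from 5.94% to 1.84%. Activating receptors together were at 529 FPKM in WT against 707 FPKM in KO, and their ratio to Fcgr2b was 1.75 in WT and 1.47 in KO, a log2 difference of -0.25. That ratio depends on the division of reads between Fcgr3 and Fcgr2b. Fcgr1 over Fcgr2b was 0.163 in WT and 0.0454 in KO, 3.59-fold lower in KO, and Fcgr1 over Fcgr4, a pair with no shared window, was 1.26 and 0.413. By contrast Fcgr3 over Fcgr2b was 1.46 and 1.31, and Fcgr4 over Fcgr2b was 0.129 and 0.110. In percent of the receptors, Fcgr1 was lower in KO and Fcgr2b higher by nearly the same amount, while Fcgr3 and Fcgr4 each moved by less than 1 point. Shares add to a fixed total, so a lower share of 1 gene must be met by higher shares of others. In FPKM the sizes were unlike, 49.3 and 21.9 for Fcgr1 against 302 and 481 for Fcgr2b. The sum of the 4 was 831 FPKM in WT and 1189 FPKM in KO.

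**Figure D2:**
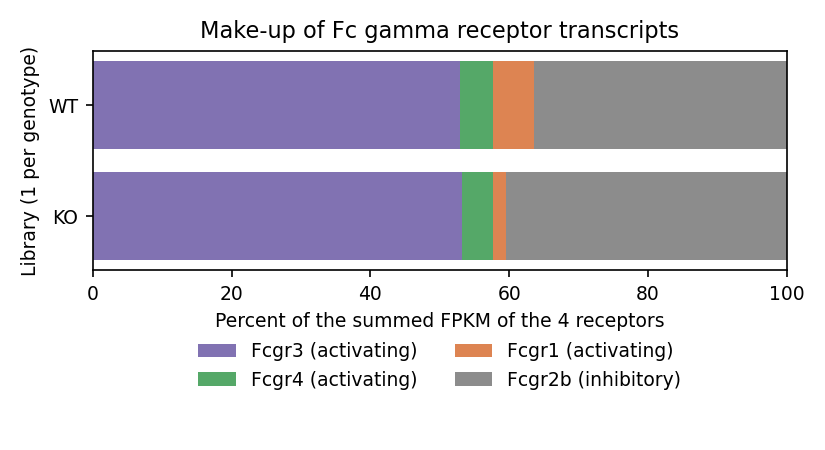
Percent of the summed FPKM of the 4 Fcγ receptor genes in the WT and the KO library, 1 bar for each library. The Fcgr1 segment is 5.94% of the WT bar and 1.84% of the KO bar, the Fcgr2b segment 36.4% and 40.5%, and Fcgr3 takes 52.97% and 53.2%.

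Fcer1g (ENSMUSG00000058715, chr1:171229572-171234365, minus strand), the ITAM-bearing γ chain, was at 2927 FPKM in WT against 2965 FPKM in KO, a difference of 0.02. It was the 21st most abundant gene of the WT library and the 19th of the KO library. Its counting interval, a KO to WT ratio of 0.989 to 1.04, spans 1. Per summed FPKM of the activating receptors there were 5.54 FPKM of Fcer1g in WT and 4.19 in KO. This was a log2 difference of -0.40 beside the 0.02 of Fcer1g itself. The γ chain thus stood several-fold above these receptors in FPKM in both libraries. Fcgr3 made up most of the receptor sum, so this ratio too depends on the division of reads between Fcgr3 and Fcgr2b.

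Syk (ENSMUSG00000021457, chr13:52583173-52648792, plus strand), the kinase that docks on phosphorylated ITAMs, was at 116 FPKM in WT against 119 FPKM in KO, a difference of 0.04. Lyn (ENSMUSG00000042228, chr4:3678115-3813122, plus strand), a Src family kinase that phosphorylates both ITAMs and ITIMs, was at 72.2 FPKM in WT against 89.5 FPKM in KO, a difference of 0.31. Both lay well inside the middle 90% of genes at 50 to 200 FPKM, which spread from -1.26 to 1.08. The interval from counting was 0.982 to 1.07 for the ratio of Syk and 1.16 to 1.33 for that of Lyn. Syk over Lyn was 1.61 in WT and 1.33 in KO, and Fcer1g over Syk was 25.2 and 24.9.

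Fcgrt (ENSMUSG00000003420, chr7:45092990-45103851, minus strand), the heavy chain of the neonatal Fc receptor, was at 359 FPKM in WT against 504 FPKM in KO, a difference of 0.49 and a ratio of 1.40. It ranked 251st among all genes in WT and 178th in KO. Its partner B2m, the β2-microglobulin light chain, which also serves MHC class I, was at 6173 FPKM in WT against 5960 FPKM in KO, a difference of -0.05. B2m over Fcgrt was 17.2 in WT and 11.8 in KO, so the light chain was far above the heavy chain in both.

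By level the order Fcer1g, Fcgr3, Fcgrt, Fcgr2b, Syk, Lyn was the same in both libraries, and Fcgr1 and Fcgr4 exchanged the last places. With 1 library for each genotype no neighbours in this order can be shown to differ. Of the 8 differences, 5 lay between 0.3 and 0.7 (Fcgr2b, Fcgr3, Fcgrt, Fcgr4 and Lyn), Fcer1g and Syk were under 0.1 in size, and Fcgr1 stood alone at -1.14. In a library of sorted cells, fewer cells of a type and less RNA per cell cannot be told apart.

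**Figure D3:**
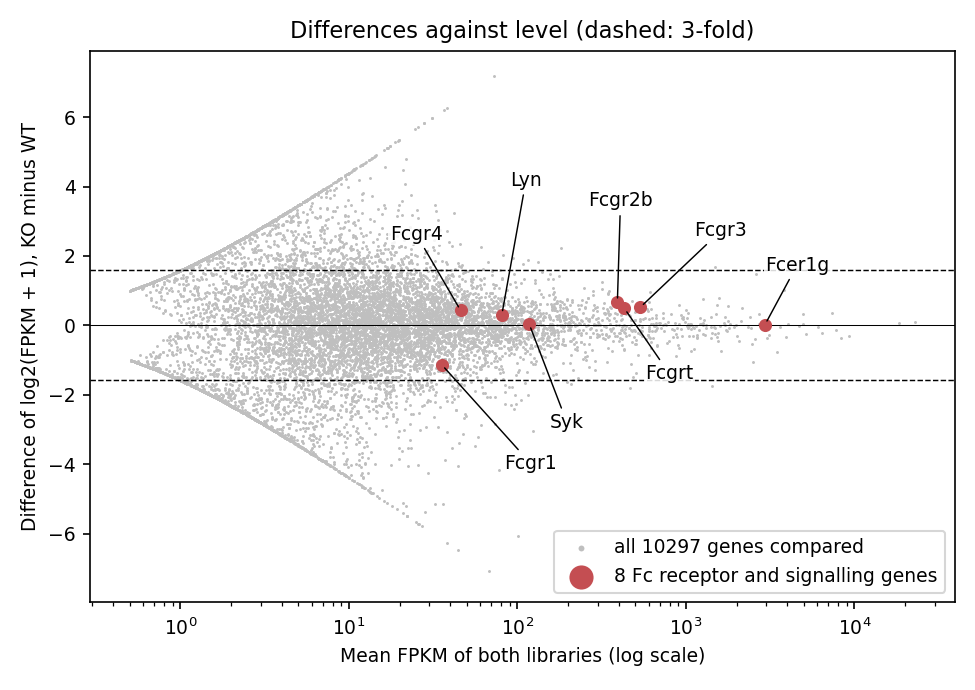
Difference of log2(FPKM + 1), KO minus WT, against the mean FPKM of both libraries (log scale) for all 10297 genes compared (grey) and the 8 Fc receptor and signalling genes (red), with dashed lines at 3-fold. All 8 lie between the lines, Fcgr1 at -1.14 and Fcgr2b at 0.67, and the grey cloud narrows towards high levels.

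Promoter sequence was examined for the 7 genes with a RefSeq window, and the windows of the 4 Fcγ receptors are shown. The 250 bases before the RefSeq start in GRCm38.p6 were searched on both strands for the core of the hypoxia response element, ACGTG or GCGTG, to which HIF-1 binds, and for GGAAGT, a site of the type bound by the macrophage factor PU.1. RefSeq starts are not always the ends of the GENCODE spans given above. The windows of Fcgr3, Fcgr2b and Syk lie inside those spans. Their matches are therefore upstream of a RefSeq start and not of the whole gene. Capitals mark the match, and ACTTCC is GGAAGT read on the other strand.
Fcgr1, chr3:96293970-96294219, minus strand: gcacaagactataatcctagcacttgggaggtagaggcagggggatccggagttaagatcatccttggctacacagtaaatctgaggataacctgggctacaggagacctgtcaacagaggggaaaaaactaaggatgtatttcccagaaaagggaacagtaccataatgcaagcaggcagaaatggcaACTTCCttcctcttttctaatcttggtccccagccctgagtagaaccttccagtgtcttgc
Fcgr4, chr1:171018676-171018925, plus strand: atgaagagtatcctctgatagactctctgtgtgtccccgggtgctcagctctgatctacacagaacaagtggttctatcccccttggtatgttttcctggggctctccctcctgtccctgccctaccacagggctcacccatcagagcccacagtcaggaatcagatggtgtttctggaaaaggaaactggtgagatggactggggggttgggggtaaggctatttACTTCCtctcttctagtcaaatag
Fcgr2b, chr1:170976072-170976321, minus strand: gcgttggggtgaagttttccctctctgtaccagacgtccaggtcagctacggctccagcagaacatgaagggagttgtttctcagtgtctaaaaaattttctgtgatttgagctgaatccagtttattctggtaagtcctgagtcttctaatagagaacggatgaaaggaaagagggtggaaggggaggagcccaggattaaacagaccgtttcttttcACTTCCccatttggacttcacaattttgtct
Fcgr3, chr1:171059404-171059653, minus strand: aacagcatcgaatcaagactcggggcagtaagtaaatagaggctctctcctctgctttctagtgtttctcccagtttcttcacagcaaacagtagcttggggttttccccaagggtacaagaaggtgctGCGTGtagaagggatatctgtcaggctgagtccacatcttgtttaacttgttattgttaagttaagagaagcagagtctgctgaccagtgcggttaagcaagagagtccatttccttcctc
GGAAGT matched in the windows of Fcgr1, Fcgr4 and Fcgr2b, with the first printed capital at -61, -24 and -31 from the start. That was 3 of the 9 windows of the 7 genes, against 19.7% of all 32851 windows of the same length. The hypoxia core matched in 5 of the 9 windows, against 38.6% of all windows, but Fcgr3 has 2 overlapping windows that share 1 match. By gene these were Fcgr3 (-121 in the window shown), Fcer1g (-12), Fcgrt (-168) and Syk (-189, in the window of its other start), each as GCGTG on the gene's own strand. No window held both motifs, so no matches overlapped. Genes with a hypoxia core had differences from 0.02 (Fcer1g) to 0.52 (Fcgr3), and genes with GGAAGT from -1.14 (Fcgr1) to 0.67 (Fcgr2b). A match describes the letters of the window and does not show binding. Spi1, which encodes PU.1, was at 367 FPKM in WT against 301 FPKM in KO, a difference of -0.29.

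The other genes of the pathway were taken as 8 lists of 97 genes, of which 74 could be compared. Of these 1 was 3-fold higher and 3 were 3-fold lower in KO, and their median difference was -0.02. Set beside all genes of the same mean level, 1 of 9 pathway genes at 1 to 10 FPKM was past 3-fold against 45.6% of all genes there, 2 of 40 at 10 to 50 FPKM against 16.3%, 1 of 20 at 50 to 200 FPKM against 4.31%, and 0 of 5 from 200 FPKM against 1.27%. These counts are small in each range and are given as a description.

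Other Fc receptors were compared next. Of 13 other Fc receptor and Fc receptor-like genes, 11 were listed at 0 in both libraries, among them Fcer1a and Ms4a2, the ligand-binding and β subunits of the high-affinity IgE receptor. A listed 0 does not show that a gene was silent, because genes that every cell uses were also listed at 0, such as Srp19, of the signal recognition particle, at 51.5 FPKM in WT and 0 in KO, a gene named after its values were seen. Trim21, a cytosolic IgG receptor of many cell types, was itself among the 11. Fcrls, an Fc receptor-like gene, was at 128 FPKM in WT against 103 FPKM in KO, a difference of -0.31. Fcrls over Fcgr2b was 0.422 in WT and 0.213 in KO. Pigr, the receptor that carries polymeric immunoglobulin across epithelia, was at 0 and 0.034 FPKM and was not compared.

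Among the chains, Tyrobp, which encodes the ITAM adaptor DAP12, was at 1792 FPKM in WT against 1858 FPKM in KO, a difference of 0.05. Fcer1g over Tyrobp was 1.63 and 1.596, so the pair of ITAM chains kept nearly the same proportion in both libraries. Hcst, which encodes DAP10, a chain that signals to phosphoinositide 3-kinase without an ITAM, was at 171 FPKM in WT against 37.5 FPKM in KO. This was a difference of -2.16, 4.57-fold lower in KO and past 3-fold. The Src family kinases other than Lyn had a median of -0.36 over 4 genes compared, with 0 past 3-fold. Fgr was at 13.3 and 12.1 FPKM and Fyn at 20.2 and 8.04 FPKM, so both had differences below 0 while Lyn was at 0.31. Lck and Blk, kinases of lymphocytes, were listed at 0 in both.

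In the list taken as adaptors and effectors downstream of Syk, 22 of 24 genes were compared. Of these 12 were above 0 and 10 below, with a median of 0.06. Grb2, an adaptor, was at 125 FPKM in WT against 129 FPKM in KO. Pik3r5, a regulatory subunit of phosphoinositide 3-kinase γ, was at 93.7 and 124 FPKM, and its place downstream of Syk was not examined here. The protein kinase C isoform Prkcd was at 113 and 84.2 FPKM. Malt1, which acts with Bcl10 and Card9 to switch on NF-κB, was past 3-fold, at 22.0 FPKM in WT against 6.53 FPKM in KO, a difference of -1.61. The phosphatases and other negative regulators had a median of 0.03 over 14 genes, 7 above and 7 below 0, and 0 past 3-fold. Inpp5d, which encodes SHIP1, the phosphatase that Fcgr2b recruits, was at 84.8 FPKM in WT against 108 FPKM in KO, a difference of 0.34. Dok2, an adaptor that restrains Ras, was at 155 and 120 FPKM, and Cbl, a ubiquitin ligase that acts on Syk, at 39.3 and 47.9 FPKM.

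Small GTPases and actin regulators of the phagocytic cup numbered 12, of which 3 were above 0 and 9 below, with a median of -0.29. Among all genes compared 51.3% were above 0. Rac1, the GTPase that drives membrane extension, was at 189 FPKM in WT against 187 FPKM in KO. Cdc42, which starts actin assembly at the cup, was at 338 and 276 FPKM, and Rhog at 278 and 199 FPKM, a difference of -0.48. In this list 1 gene passed 3-fold. It was Nck1, an adaptor named here after its values were seen, at 6.95 FPKM in WT and listed at 0 in KO. Receptors that also pair with the γ chain were all above 0, 4 of 4 compared beside that 51.3% of all genes, with a median of 0.34. Clec4n, which encodes the fungal receptor Dectin-2, was at 47.7 FPKM in WT against 74.8 FPKM in KO, a difference of 0.64. Clec4e, which encodes Mincle, was at 50.2 and 51.6 FPKM, and Clec4d at 57.3 and 58.9 FPKM, each a difference of 0.04.

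Other inhibitory receptors with an ITIM had 14 members compared, with a median of 0.09. Lilrb4a was the highest, at 523 FPKM in WT against 720 FPKM in KO, a difference of 0.46 beside the 0.67 of Fcgr2b. Pirb was at 110 and 124 FPKM. Clec12a, a receptor that dampens responses to dead cells, was at 183 FPKM in WT against 97.9 FPKM in KO, a difference of -0.90, so inhibitory receptors lay on both sides of 0. Cd300lf, which binds lipids, was past 3-fold, at 5.83 FPKM in WT against 24.3 FPKM in KO, a difference of 1.89.

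**Figure D4:**
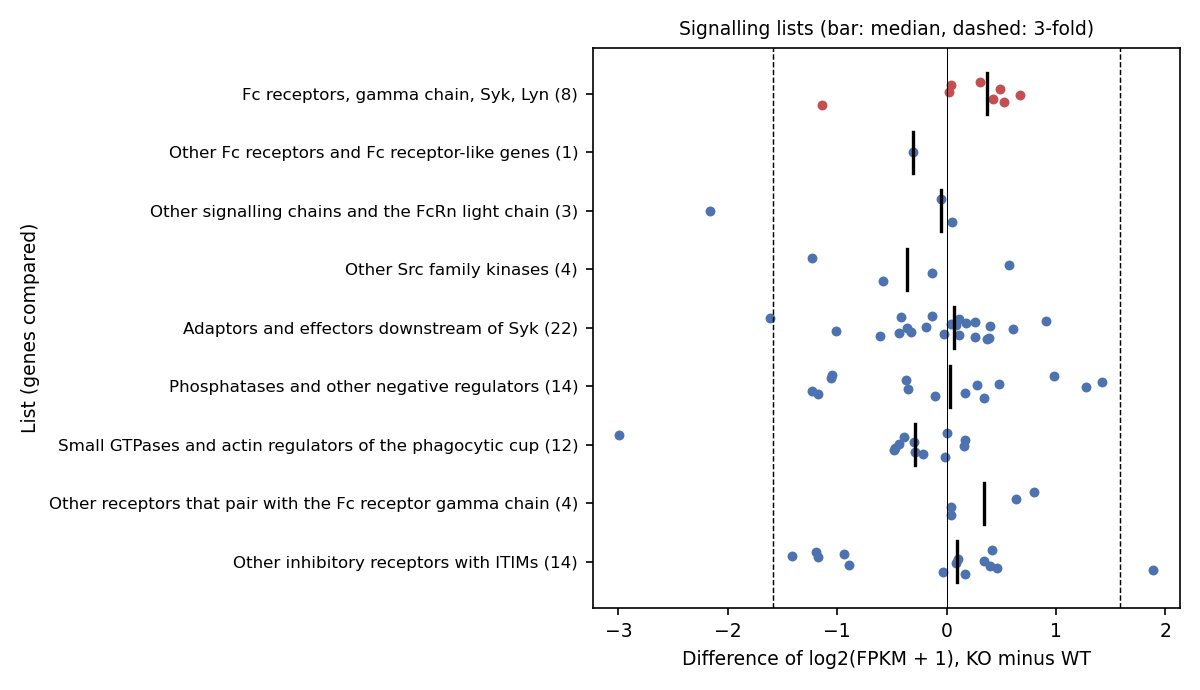
Difference of log2(FPKM + 1), KO minus WT, of each gene compared (dots) in the 8 Fc receptor and signalling genes (red) and in each pathway list (blue), with the number of genes compared in parentheses, medians as bars and dashed lines at 3-fold. The median of the 8 genes is 0.37, and list medians run from -0.36 for other Src family kinases to 0.34 for receptors that pair with the γ chain.

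The sorted cells were checked against their labels. The genes of both sort markers were present, Adgre1 (F4/80) at 299 FPKM in WT against 239 FPKM in KO and Itgam (CD11b) at 128 FPKM in both. Of 11 macrophage markers 0 passed 3-fold, with a median of 0.05, and their summed FPKM was 7208 in WT and 7595 in KO. Csf1r was at 615 and 719 FPKM, Cd14 at 1060 and 1095 FPKM, Lyz2 at 3936 and 4080 FPKM, Mrc1 at 332 and 427 FPKM, and Maf at 115 and 108 FPKM. Cd163 was at 130 and 214 FPKM and Mertk, a receptor for dying cells, at 38.0 and 88.1 FPKM, the largest difference of this list at 1.19. Hif1a itself was at 30.4 FPKM in WT against 20.97 FPKM in KO, a difference of -0.52 inside the spread at its level, for the whole gene and not the loxP-flanked part. Apoe, labelled as knocked out in both genotypes, was at 94.3 and 117 FPKM, so reads of this gene were present in both libraries. These values are for the whole gene, and which part is disrupted is not given in the sources used here. Summed FPKM was 585823 in WT and 568329 in KO, with 9773 and 10124 genes above 0.

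Other cells of fat carry Fc receptors too, and some of their markers differed between the libraries. Neutrophils use Fcgr3, Fcgr4 and Fcer1g, and their 11 markers summed to 158 FPKM in WT against 523 FPKM in KO. Of these markers 3 were higher by 3-fold. All 7 compared were above 0, beside 51.3% of all genes compared. The 3 were S100a9 and, at low levels, Ngp and Mpo, which were at 2.61 and 2.29 FPKM in KO and listed at 0 in WT. Among all genes 23.2% were 3-fold higher at 1 to 10 FPKM, the range of Ngp and Mpo, and 1.08% at 50 to 200 FPKM, the range of S100a9. S100a8 was at 73.3 and 182 FPKM, S100a9 at 63.4 and 301 FPKM and Csf3r at 15.5 and 24.1 FPKM, while Camp, Ltf, Elane and Mmp8 were listed at 0 in both. Of the 4 monocyte markers compared 3 were below 0, where 51.3% of all genes compared were above 0. The other, Ace, was above 0, at 3.04 and 5.85 FPKM. The sum of the list was 649.7 FPKM in WT against 505.0 FPKM in KO, nearly all of it Nr4a1 at 608 and 489 FPKM, with Ccr2 at 29.4 and 9.78 FPKM and Ly6c2 at 9.39 FPKM and listed at 0. Whether these cells had a part in the differences of Fcgr3, Fcgr4 or Fcgr1 was not tested.

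Mast cell and eosinophil markers were low. Hdc, of the mast cell list, was at 1.72 FPKM in WT against 13.8 FPKM in KO, with Cpa3, Mcpt4, Tpsb2 and Cma1 listed at 0 in both, and Alox15, of the eosinophil list, was at 6.497 and 25.7 FPKM, with Siglecf, Prg2 and Epx listed at 0 in both. Ccr3, the other eosinophil marker compared, was at 7.45 FPKM in KO but listed at 0 in WT, so both were 3-fold higher in KO, as were 23.2% of all genes in the range of Ccr3 and 7.84% in that of Alox15, 10 to 50 FPKM. The markers of NK cells, which carry Fcgr3, were all listed at 0 in WT and summed to 11.1 FPKM in KO, where Klrd1 alone was above 0. B cells carry Fcgr2b, and their markers summed to 2.75 and 6.46 FPKM, with Cd79b at 5.52 FPKM in KO but listed at 0 in WT, and Cd79a at 2.50 and 0.222 FPKM. Whether they had a part in the difference of Fcgr2b was not tested. Dendritic cell markers summed to 126 and 149 FPKM, nearly all Cd209a at 122 and 131 FPKM, but 2 of the 4 compared were 3-fold higher in KO. These were Zbtb46, at 9.45 FPKM in KO but listed at 0 in WT, and Siglech, at 1.42 and 8.31 FPKM, both in the range where 23.2% of all genes were. Xcr1 was below 0, at 1.65 and 0.059 FPKM, and Ccr7, at 0.529 FPKM in WT and listed at 0 in KO, was not compared. Fibroblast markers summed to 37.9 and 71.7 FPKM, with Dcn at 35.03 and 62.3 FPKM. The sums of T cell, endothelial cell and adipocyte markers were each under 10 FPKM in both libraries.

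**Figure D5:**
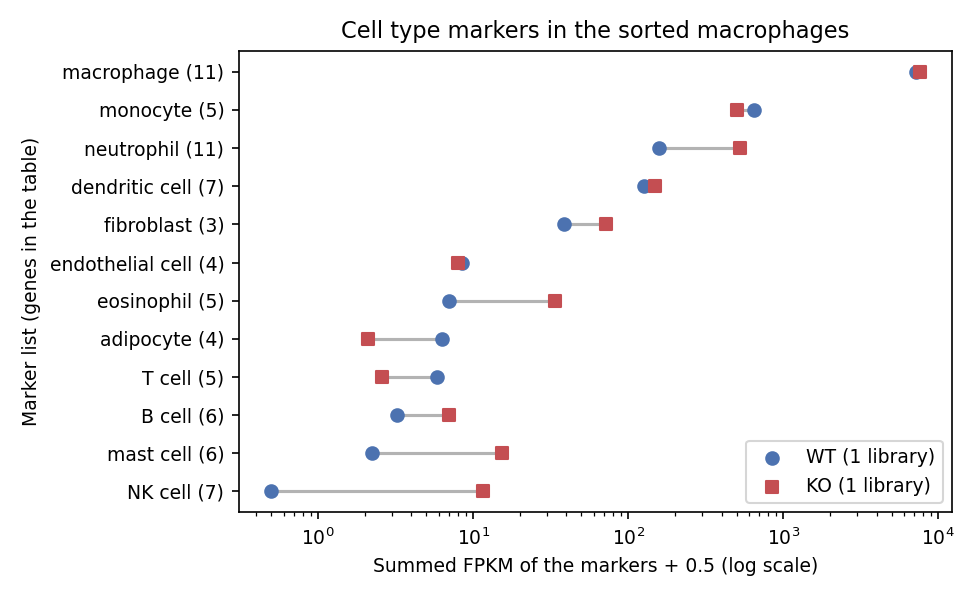
Summed FPKM of each marker list plus an offset of 0.5 (log scale) in the WT library (circles) and the KO library (squares), with the number of genes in the table in parentheses. Macrophage markers are the highest in both at 7208 and 7595 FPKM, and neutrophil markers are at 158 and 523 FPKM.

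For each of the 8 genes, the other genes nearest to it in level were found by Euclidean distance of log2(FPKM + 1) over the 2 libraries, a likeness that rests on those values alone. Nearest to Fcgr1 were Arhgap18, at 49.7 and 21.8 FPKM, and Rex1bd, at 50.5 and 22.3 FPKM, at distances of 0.013 and 0.041. Nearest to Fcgr2b were Pmp22 (0.096) and C5ar1 (0.187), the receptor for the complement fragment C5a, at 298 and 423 FPKM. Fcgr3 lay nearest to H3f3a (0.084) and Fxyd2 (0.098), and Fcgr4 to Pacsin2 (0.048) and Cd151 (0.049). Fcer1g, at a level few genes reach, lay nearest to Rps26 (0.160) and to C1qc (0.245), a chain of the complement component that binds antibody. Fcgrt lay nearest to Rnasek (0.123) and Cdkn1a (0.140), Syk to Eif3f (0.017) and Coro1c (0.024), and Lyn to Etv3 (0.026) and Ywhab (0.058).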

How the data were processed

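RNA was sequenced from ATM of WT and KO mice, 1 library for each genotype. The authors deposited 1 table of FPKM values for each gene and library, and the submitters' processing notes name CASAVA 1.8.2, TopHat2 2.0.9, Cufflinks 2.2.1 and mm9. The role of each tool and the gene annotation are not given in the sources used here. FPKM is already divided by transcript length and library size, so no count model was used. The mutant column was read as KO, the library that is not WT in the labels. Of 20749 rows, 401 repeated another row in full and were dropped, and the FPKM of 18 rows with other values for an identifier already present was summed. This left 20330 identifiers, and GENCODE M21 gave a symbol for 20035 of them. Positions and lengths are from GENCODE M21 on GRCm38 and promoter windows from RefSeq on GRCm38.p6, not mm9. RefSeq gave windows for 7 of the 8 genes, 9 windows in all, because Fcgr3 and Syk have another start. Lyn had none.

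Values were compared in the authors' scaling as log2(FPKM + 1) for the 10297 genes that reached 1 FPKM in either library. This scale understates differences of low genes. With 1 library per genotype no p-value or SE was computed. The smallest recurring value of FPKM x kb in genes with 1 transcript was taken as 1 fragment, 0.169 in WT (18 genes within 12%) and 0.134 in KO (20 genes). Fragment numbers are estimates, and their 95% exact Clopper-Pearson intervals cover counting error only, since PCR copies are not independent. The procedure was also run on simulated data, and the outcome of that run is not reported here. The 8 genes and the lists were chosen with earlier results of these data known. Named were the 8 genes, the 3 genes of each pathway list with the highest mean FPKM and those past 3-fold that reached 1 FPKM in both libraries or 10 in either, markers of at least 10 FPKM in either library, the 2 nearest genes and Hif1a and Apoe. Markers under that level are named where they define a cell type or decide a sum. Pira2, Sirpa, Cd68, Ly6g, Ighm and Trac were not analysed here, nor were protein sequences, and a few genes that the naming rule covers are not reported here. Alternatives were a pseudocount of 0.1 or 0.01, other filters, a 2-fold threshold, scaling to the upper quartile or the sum and keeping the highest row of an identifier. Python 3.11.15, numpy 2.4.6, pandas 2.3.3, scipy 1.17.1 and matplotlib 3.10.9 were used.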

Additional observations from a re-analysis of the deposited data

How the results depend on the processing

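The number of the 8 genes past the threshold was 0 at 3-fold and 1 with a 2-fold threshold, which was Fcgr1. Over all genes the number past the threshold, 2815, was 876 among genes that reached 1 FPKM in both libraries and 1244 among genes with a mean from 5 FPKM up, since these filters leave out low genes, and 4694 with a 2-fold threshold. The log2 difference of the activating to inhibitory ratio was -1.84 with Fcgr1 as the lone activating receptor, against -0.25 for the sum of 3. The differences of the 8 genes were recomputed 64 times under the alternatives. All 64 stayed within a 1.5-fold allowance and 0 changed sign, and 32 equalled the reported value to 6 significant digits and say nothing of stability. The medians of the lists were also recomputed 64 times, and 0 moved beyond the allowance or changed sign. All list medians were smaller in size than that allowance, so this count says little of their stability. With no filter, which lets in genes listed at 0, the median of other Src family kinases was 0 against -0.36. That of other Fc receptors was 0 against -0.31, and that of receptors pairing with the γ chain 0.04 against 0.34. With 1 FPKM required in both libraries, or a mean of 5 FPKM, the Src family median was -0.58. Scaling moved all KO values by 0.014 (upper quartile) or 0.044 (sum) on the log2 scale. No paired analysis was possible because WT and KO have a single library each. Depth limits the less abundant genes. By estimate 290 WT fragments lay behind Fcgr4, and counting error alone put the KO to WT ratio at 1.17 to 1.57 for Fcgr4 and at 0.393 to 0.5003 for Fcgr1, so the 2-fold call of Fcgr1 is at the edge of that interval. Replicates are absent, and the division of reads between Fcgr2b and Fcgr3 is not known.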
